A study of Homo sapiens with 12 samples.

Results

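The interaction of total parenteral nutrition (TPN) with exposure time was examined across all genes in all 12 libraries of the series, 3 in each of 4 groups, so no sample was set aside. The spheroids were co-cultures of HepG2/C3A cells, a clone of a hepatoma line with hepatocyte-like functions, and LX-2 cells, a line derived from human hepatic stellate cells, grown in MEM with fetal bovine serum. They were left untreated or were exposed to 1% TPN, the intravenous feed given to patients (glucose, a lipid emulsion and amino acids with electrolytes, plus vitamins and trace elements), for 24 h or 144 h. Each library came from a pool of spheroids of the same 2 lines, and the study describes the sequencing data as coming from independent experiments, so the p-values measure the spread between those. The labels number the replicates of each group 1 to 3 without saying which libraries belong to the same experiment. Untreated spheroids were collected at the same times, and the 144 h groups were therefore also older cultures. The measurement was RNA sequencing, given as FPKM, the fragments of a gene scaled by transcript length and by sequencing depth.

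For each gene, 2 culture-time changes were formed on the scale of log2(FPKM + 0.1), one in untreated spheroids (untreated 144 h minus untreated 24 h) and one in exposed spheroids (TPN 144 h minus TPN 24 h). The interaction is the second change minus the first, which equals the TPN effect at 144 h minus that at 24 h. A positive interaction means that time in culture moved a gene further upward, or less far downward, with TPN than without it. A gene was called when the log2 difference exceeded 0.58 in size and limma's moderated test, adjusted over all genes by Benjamini-Hochberg, gave p below 0.05.

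The liver cell makes most plasma proteins, stores and burns fat, makes glucose and clears foreign compounds, and each of these tasks rests on genes that respond to nutrients. In culture, hepatoma cells that grow as spheroids slow their division and shift their expression over days. NRF2 is a transcription factor that switches on detoxifying and redox genes, usually through the antioxidant response element. Acute phase proteins are plasma proteins that hepatocytes make in greater amount under inflammatory cytokines. Stellate cells supply collagens and other matrix proteins to the liver.

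Of 11713 genes tested, 687 (5.87%) were called for the interaction, 492 of them higher (4.2%) and 195 lower (1.66%). By the adjusted p value alone the count was 3565 (30.4%), with 1654 higher (14.1%) and 1911 lower (16.3%), so small interactions leaned downward and large ones upward. With the same thresholds, the change from 24 h to 144 h was called in 2230 genes in untreated spheroids (19%) and 3123 in exposed spheroids (26.7%). In exposed spheroids the later time also meant a longer exposure to TPN, so their changes are not those of culture time alone. The TPN effect was called in 107 genes at 24 h (0.914%) and in 1110 at 144 h (9.48%). The median gene had an interaction of −0.0197, a time change of −0.183 in untreated and of −0.184 in exposed spheroids. Median ratio scaling moved the median time changes to −0.008 and −0.011 and the median interaction by −0.001, so classes that rest on a time change near the threshold depend on it. Each time change and each TPN effect shares libraries with the interaction, so their values are given side by side and were not correlated.

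Every called gene was placed in 1 of 6 classes by its 2 time changes. In 275 genes the time change was called only in exposed spheroids (182 with a positive interaction). In 138 genes the change of the untreated spheroids was not called in exposed ones, here termed blocked, and 113 of these fell without TPN. In 123 genes both changed the same way and the exposed change was at least as large (strengthened, 87 rises and 36 falls), whereas in 22 it was smaller (weakened, 13 rises and 9 falls). In 17 genes both changes were called with opposite signs (reversed), and 16 of these fell without TPN and rose with it. In the remaining 112 genes neither time change was called by itself. The strengthened genes were 5.52% of the 2230 genes that time changed in untreated spheroids, the blocked ones 6.19%, the weakened ones 0.987% and the reversed ones 0.762%. Of those 2230 genes, 796 rose and 1434 fell, so falls without TPN were the more common direction before any split into classes. A blocked change means that the exposed change missed the thresholds, not that it was 0. Likewise, changed only in exposed spheroids means that the untreated change missed them. AURKB, for example, is in that class with a time change of −0.49 without TPN.

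**Figure D1:**
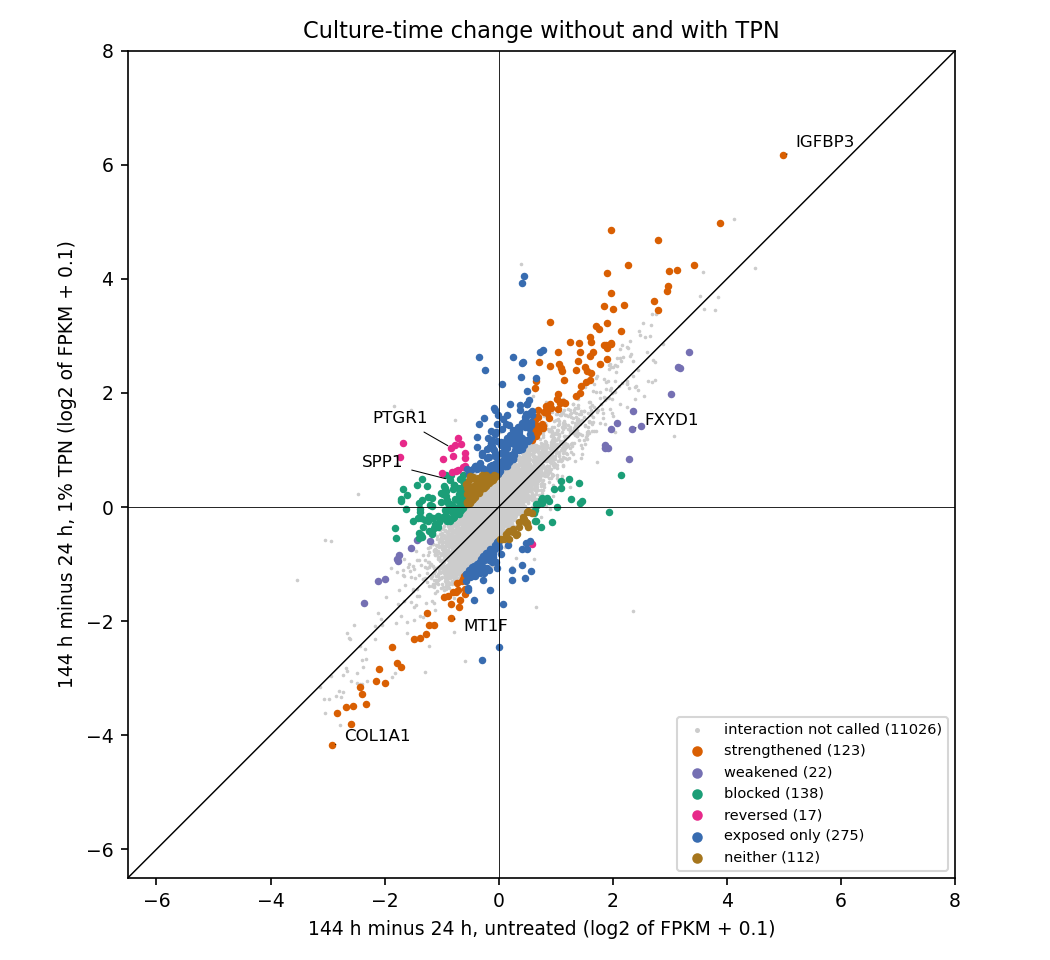
Each point is 1 of the 11713 genes tested, with its culture-time change in untreated spheroids on the x axis and in 1% TPN on the y axis, both as log2 differences of FPKM + 0.1 (144 h minus 24 h, means of 3 libraries per group), and the diagonal marks equal change. The 123 strengthened and 22 weakened genes lie along the diagonal on either side, the 138 blocked genes near the horizontal zero line, and the 17 reversed genes mostly at the upper left.

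Genes that fell in untreated spheroids and rose under TPN included a redox enzyme, an acute phase protein and an interferon-response gene. PTGR1 (chromosome 9, 111549722 to 111599855, GRCh38.p13), which reduces lipid-derived aldehydes and ketones and is an NRF2 target, was at 8.58, 8.1 and 9.27 FPKM in untreated libraries at 24 h and 4.29, 5.73 and 4.56 at 144 h, and 20.6, 20.2 and 20.8 in exposed libraries at 24 h and 42.5, 41 and 43.5 at 144 h. The groups did not overlap, and TPN libraries were higher at both times. Its time change was −0.83 without TPN and 1.04 with it, an interaction of 1.87 ± 0.12 (SE, adjusted p = 2.49e-07). DUSP13, a dual-specificity phosphatase, read 3.13, 3.82 and 3.67 FPKM in untreated libraries at 24 h and 1.38, 1.68 and 2.27 at 144 h, and 7.73, 8.08 and 8.0 in exposed libraries at 24 h and 14.3, 14 and 14.6 at 144 h. It had the same order of groups, and the interaction was 1.82 ± 0.18 (SE, adjusted p = 1.09e-05). HP encodes haptoglobin, the plasma protein that binds free haemoglobin (chromosome 16, 72054505 to 72061055). Its values were 24.4, 24.8 and 27 FPKM in untreated libraries at 24 h and 15.6, 13 and 14.5 at 144 h, and 20.3, 18.9 and 20.7 in exposed libraries at 24 h and 28.2, 30.8 and 32.6 at 144 h. Exposed spheroids were below untreated ones at 24 h and above them at 144 h, and the interaction was 1.43 ± 0.10 (SE, adjusted p = 5e-07).

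OAS1, an antiviral enzyme induced by interferon, measured 4.44, 4.22 and 3.41 FPKM in untreated libraries at 24 h and 2.33, 2.15 and 2.32 at 144 h, and 4.38, 3.65 and 4.05 in exposed libraries at 24 h and 7.81, 6.99 and 7.85 at 144 h. The groups at 24 h overlapped and those at 144 h did not, with an interaction of 1.69 ± 0.14 (SE, adjusted p = 2.52e-06). S100A11, a calcium-binding protein, had an interaction of 1.54 ± 0.18 (SE, adjusted p = 3.41e-05). C1S, a protease that starts the classical complement pathway, is also in this class, with 9.57, 9.99 and 8.21 FPKM in untreated libraries at 24 h and 5.57, 5.74 and 5.04 at 144 h, and 10.3, 10.5 and 11.1 in exposed libraries at 24 h and 15, 16.7 and 17.8 at 144 h, and an interaction of 1.38 ± 0.11 (SE, adjusted p = 2.43e-06). With median ratio scaling, S100A11 and C1S counted as changed only in exposed spheroids, because their fall without TPN no longer passed the threshold.

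Most of the blocked class fell between 24 h and 144 h without TPN, with no called change in exposed spheroids. SPP1, the secreted phosphoprotein osteopontin (chromosome 4, 87975714 to 87983411), was at 620.2, 679.8 and 634 FPKM in untreated libraries at 24 h and 352, 353 and 359 at 144 h, and 878, 889.6 and 874 in exposed libraries at 24 h and 1207, 1185 and 1296 at 144 h. Every exposed library was above every untreated one, and the interaction was 1.34 ± 0.05 (SE, adjusted p = 5.17e-09). The time change of −0.86 in untreated spheroids stood against 0.48 in exposed ones. DKK4, a secreted inhibitor of Wnt signalling, was at 8.94, 8.64 and 8.54 FPKM in untreated libraries at 24 h and 2.92, 4.29 and 3.09 at 144 h, and 10.4, 12.2 and 10.7 in exposed libraries at 24 h and 16.8, 15.1 and 14.9 at 144 h, with an interaction of 1.83 ± 0.16 (SE, adjusted p = 3.63e-06). TSPO is a cholesterol-binding protein of the outer mitochondrial membrane. Its interaction was 1.49 ± 0.19 (SE, adjusted p = 7.05e-05), with time changes of −0.93 and 0.56. Under median ratio scaling the rises of SPP1, DKK4 and TSPO with TPN passed the threshold, and these 3 genes moved to the reversed class.

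GSTA1, a glutathione transferase, was at 4.58, 4.55 and 3.99 FPKM in untreated libraries at 24 h and 1.31, 1.7 and 1.68 at 144 h, and 4.25, 4.32 and 4.14 in exposed libraries at 24 h and 5.26, 5.12 and 6.4 at 144 h. The 24 h groups overlapped, and at 144 h untreated libraries were the lowest and exposed ones the highest, with an interaction of 1.82 ± 0.15 (SE, adjusted p = 2.63e-06). Its near-identical neighbour GSTA2, which changed only in exposed spheroids, had 5.52, 5.02 and 4.26 FPKM in untreated libraries at 24 h and 4.47, 4.12 and 3.7 at 144 h, and 6.23, 5.08 and 6.33 in exposed libraries at 24 h and 19, 15.1 and 18.7 at 144 h, and an interaction of 1.82 ± 0.16 (SE, adjusted p = 5.45e-06). Fragments of these copies can be split between them by the authors' counting, so the 2 values are not independent. SLC5A11, a sodium-coupled inositol transporter, already differed at 24 h. It was at 2.99, 3.6 and 3.28 FPKM in untreated libraries at 24 h and 1.01, 1.39 and 1.18 at 144 h, and 6.52, 7.37 and 8.73 in exposed libraries at 24 h and 8.17, 7.93 and 7.43 at 144 h, with an interaction of 1.46 ± 0.17 (SE, adjusted p = 3.07e-05). IFI27, an interferon-induced gene, was at 5.61, 6.81 and 6.25 FPKM in untreated libraries at 24 h and 1.53, 1.84 and 4.36 at 144 h, and 4.0, 4.6 and 5.03 in exposed libraries at 24 h and 6.01, 3.39 and 3.82 at 144 h. The third untreated 144 h library overlapped with the exposed ones, and the interaction of 1.30 ± 0.41 (SE, adjusted p = 0.0295) missed the threshold in 6 of the 12 settings where 1 library was left out, for example without the third untreated 24 h library (adjusted p = 0.0514). It also missed it without a filter on low values (adjusted p = 0.0611) and without the intensity trend (adjusted p = 0.0599).

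Strengthened genes extended a change that the untreated spheroids also made. AKAP12, a scaffold for protein kinase A (chromosome 6, 151239815 to 151358559), was at 5.7, 5.81 and 5.88 FPKM in untreated libraries at 24 h and 14, 14.1 and 13.7 at 144 h, and 6.77, 6.93 and 6.88 in exposed libraries at 24 h and 51.8, 55.2 and 48.2 at 144 h. TPN libraries exceeded untreated ones at both times, by far more at 144 h, and the interaction was 1.64 ± 0.07 (SE, adjusted p = 5.17e-09). VNN1, which releases pantothenate from pantetheine, and SERPINE2, a protease inhibitor, had interactions of 1.67 ± 0.17 (SE, adjusted p = 1.63e-05) and 1.83 ± 0.19 (SE, adjusted p = 1.66e-05). VNN1 measured 0.48, 0.37 and 0.38 FPKM in untreated libraries at 24 h and 2.02, 1.55 and 1.65 at 144 h, and 0.51, 0.61 and 0.56 in exposed libraries at 24 h and 7.24, 7.32 and 7.79 at 144 h, so only the exposed 144 h libraries passed 5 FPKM. SERPINE2 measured 2.17, 2.55 and 2.0 FPKM in untreated libraries at 24 h and 3.93, 3.71 and 3.54 at 144 h, and 1.36, 2.17 and 1.57 in exposed libraries at 24 h and 9.33, 10.8 and 10.6 at 144 h. NDRG4 was at 0.65, 0.94 and 0.94 FPKM and 1.47, 1.53 and 1.96 without TPN and at 0.95, 0.98 and 1.03 and 5.83, 6.34 and 5.71 with it, an interaction of 1.58 ± 0.19 (SE, adjusted p = 5.47e-05). TMED7-TICAM2 is a read-through transcript over 2 genes, whose fragments cannot be told apart from theirs, and its interaction was 1.69 ± 0.23 (SE, adjusted p = 0.000107). The histone gene H2AC6 was at 9.86, 9.16 and 10.3 FPKM in untreated libraries at 24 h and 17.4, 13.2 and 16 at 144 h, and 7.61, 8.53 and 10.1 in exposed libraries at 24 h and 39.5, 43.6 and 38.6 at 144 h, with an interaction of 1.55 ± 0.15 (SE, adjusted p = 7.67e-06).

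Falls that were larger with TPN included that of COL1A1, the alpha 1 chain of type I collagen. COL1A1 (chromosome 17, 50184096 to 50201649) was at 14.1, 16.3 and 14.9 FPKM in untreated libraries at 24 h and 2.38, 1.68 and 1.69 at 144 h, and 14.2, 15.5 and 15.4 in exposed libraries at 24 h and 0.92, 0.62 and 0.70 at 144 h. At 24 h the untreated and exposed libraries overlapped, while at 144 h all exposed libraries were below all untreated ones. The fall with time was −2.93 without and −4.18 with TPN, and the interaction was −1.25 ± 0.19 (SE, adjusted p = 0.000312). The exposed 144 h values were all below 1 FPKM, and with a pseudocount of 1 the interaction was −0.73 and still called.

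In the weakened class, most genes rose with time and rose less with TPN. FXYD1, a regulator of the sodium-potassium pump (chromosome 19, 35137206 to 35151336), was at 15.2, 17.1 and 14.7 FPKM in untreated libraries at 24 h and 74.3, 77.8 and 86 at 144 h, and 14.1, 17.1 and 16.4 in exposed libraries at 24 h and 37.9, 41.2 and 44.4 at 144 h. The 24 h groups overlapped, and at 144 h the exposed libraries were all lower, with an interaction of −0.96 ± 0.11 (SE, adjusted p = 4.32e-05). PNCK, a calmodulin-dependent kinase, INHA, the inhibin alpha subunit, and SLC12A3, a sodium-chloride cotransporter, had interactions of −0.83, −0.77 and −0.74 (adjusted p = 5.1e-05, 0.00032 and 0.00324). IL17B, a cytokine, was at 1.35, 1.71 and 0.61 FPKM in untreated libraries at 24 h and 5.96, 5.8 and 5.92 at 144 h, and 2.11, 2.51 and 1.6 in exposed libraries at 24 h and 3.82, 3.41 and 3.99 at 144 h, and its interaction of −1.44 ± 0.36 (SE, adjusted p = 0.0085) rested on low values at 24 h. COLGALT2, which attaches galactose to collagen, fell with time in both, and less so with TPN. It was at 7.1, 6.17 and 6.52 FPKM in untreated libraries at 24 h and 2.23, 2.09 and 2.33 at 144 h, and 7.98, 7.89 and 7.96 in exposed libraries at 24 h and 4.76, 4.72 and 4.84 at 144 h, an interaction of 0.81 ± 0.09 (SE, adjusted p = 2.21e-05), but under median ratio scaling its change in exposed spheroids was not called.

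Genes whose time change was called only under TPN formed the largest class. CDA, which deaminates cytidine, was at 6.19, 6.53 and 7.44 FPKM in untreated libraries at 24 h and 5.71, 7.61 and 6.8 at 144 h, and 9.9, 10.9 and 9.58 in exposed libraries at 24 h and 29.9, 27.3 and 36.5 at 144 h. Untreated libraries overlapped between times, exposed ones were higher at 24 h and higher still at 144 h, and the interaction was 1.61 ± 0.16 (SE, adjusted p = 1.08e-05). CDKN1A, the cyclin-dependent kinase inhibitor p21 (chromosome 6, 36676463 to 36687332), was at 41.4, 39.2 and 40.6 FPKM in untreated libraries at 24 h and 33.2, 36.3 and 35.8 at 144 h, and 42.1, 40.5 and 40.3 in exposed libraries at 24 h and 72.2, 73.3 and 77.8 at 144 h. Only the exposed 144 h libraries stood apart upward, an interaction of 1.06 ± 0.06 (SE, adjusted p = 6.95e-08). Histone genes of this class are given with their family below.

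**Figure D2:**
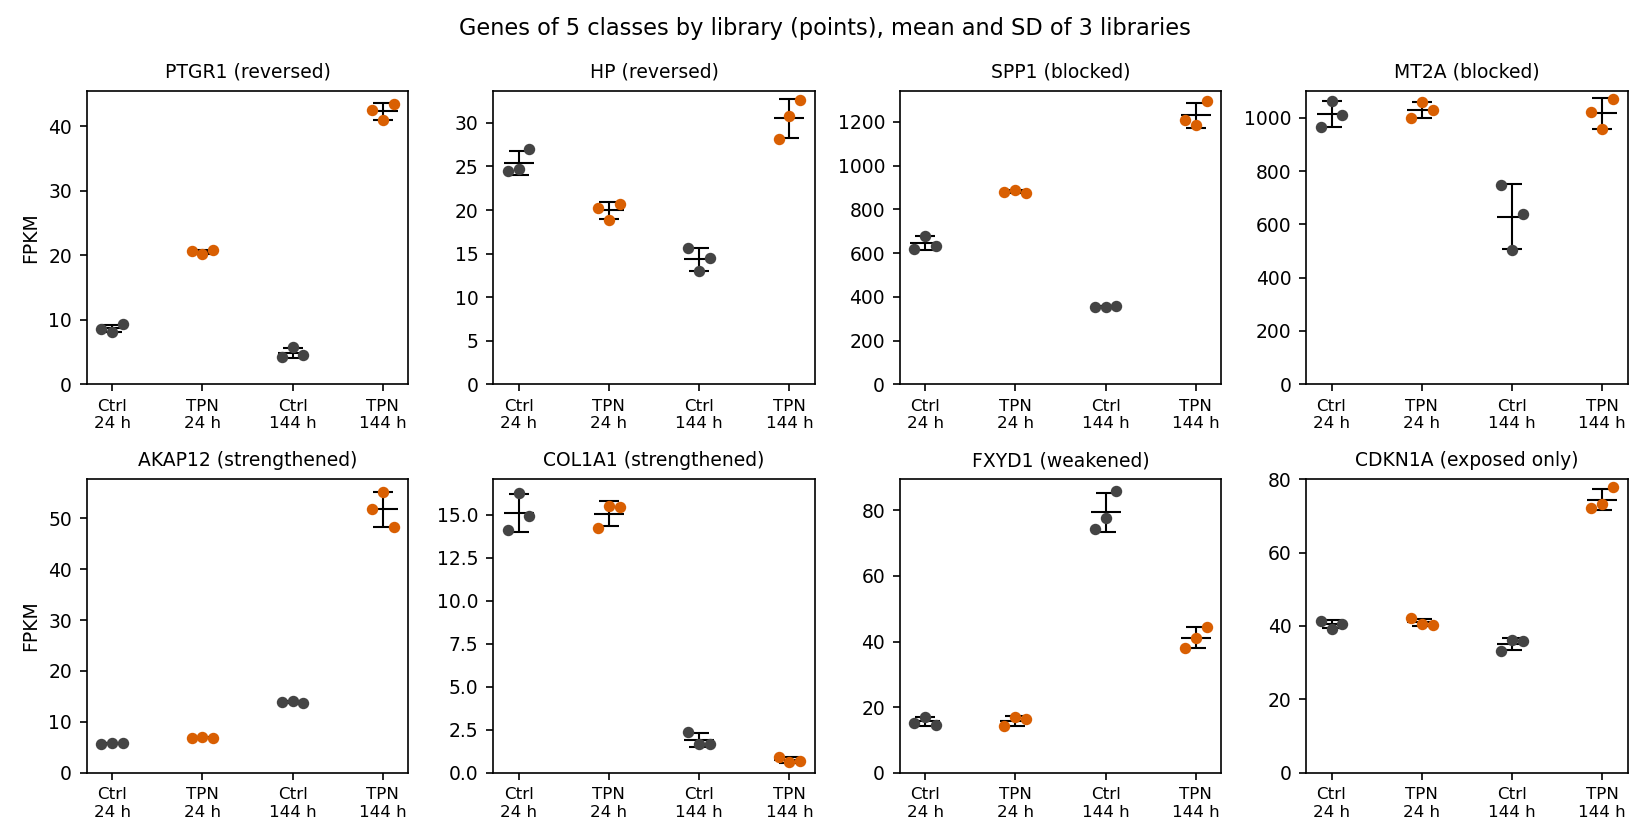
FPKM of 8 genes on linear axes that start at 0, one panel per gene with its class in the title. Points are libraries, horizontal bars the mean and error bars the SD of 3 libraries, grey for untreated and orange for 1% TPN. PTGR1 and HP cross or diverge between 24 h and 144 h, SPP1 and MT2A fall only without TPN, and CDKN1A rises only in exposed spheroids at 144 h.

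Read by the TPN effect, 527 of the 687 genes were called at 144 h and not at 24 h (371 with a positive interaction). In 28 genes the effect was called at both times and was larger at 144 h (23 positive), in 8 genes it was called only at 24 h (13 without the first and 16 without the third untreated 24 h library), in 1 gene it changed sign with both effects called, and no effect called at both times was smaller at 144 h. In the other 123 genes neither effect was called alone. The signed effects of these 28 genes had a median of 0.71 at 24 h and 1.58 at 144 h, over 23 positive and 5 negative interactions. A larger effect at 144 h is part of the definition of this group. PTGR1, with TPN effects of 1.24 at 24 h and 3.11 at 144 h, belonged to this group, as did DUSP13 (1.15 and 2.97), SLC5A11 (1.17 and 2.63) and AKR1C1 (1.04 and 2.14). MIXL1, a homeobox transcription factor, moved the other way, from −0.70 to −1.71. It was at 15.4, 16.7 and 16.5 FPKM in untreated libraries at 24 h and 13.9, 13.6 and 12.7 at 144 h, and 9.53, 10.2 and 10.1 in exposed libraries at 24 h and 4.83, 3.7 and 3.65 at 144 h, with an interaction of −1.01 ± 0.12 (SE, adjusted p = 4.98e-05). Of the effects called only at 24 h, DEFB1, an antimicrobial peptide, was the one above 5 FPKM. It was at 92.4, 90.1 and 88 FPKM in untreated libraries at 24 h and 55.6, 52.7 and 69.9 at 144 h, and 50.9, 69.5 and 51 in exposed libraries at 24 h and 64.7, 56.5 and 72 at 144 h, so exposed libraries were lower at 24 h and overlapped with untreated ones at 144 h (interaction 0.79 ± 0.17 SE, adjusted p = 0.00381). The gene that changed sign stayed below 5 FPKM in every group.

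Gene lists are described by counts of members, to be read against the shares of all genes tested, 4.2% called higher and 1.66% called lower, or 14.1% higher and 16.3% lower by the adjusted p value alone. Cell division genes were lower at 144 h than at 24 h in all spheroids, and lowest with TPN. In the list of 27 mitosis and spindle genes, all 27 had a negative interaction with an adjusted p value below 0.05, where 16.3% of all genes did. Only 2 of them, AURKB and ANLN, were also past the fold threshold. The median interaction was −0.45, with members from −0.62 to −0.28, against −0.0197 over all genes. The median time change was −0.55 without TPN and −1.02 with it, and the fall was called in 12 and in 27 genes. The library medians of this list, relative to untreated 24 h, were −0.16, −0.18 and −0.14 in TPN at 24 h, −0.54, −0.59 and −0.58 in untreated spheroids at 144 h and −1.13, −1.16 and −1.14 in TPN at 144 h. The groups were separate, and the 3 libraries of a group lay close together.

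AURKB, the kinase of the chromosomal passenger complex, was at 56, 56.3 and 56 FPKM in untreated libraries at 24 h and 41.3, 40.0 and 38.4 at 144 h, and 52, 52.4 and 52.3 in exposed libraries at 24 h and 25.6, 22.1 and 25 at 144 h. ANLN, the actin-binding protein of the cleavage furrow, measured 31.4, 30.3 and 31.4 FPKM in untreated libraries at 24 h and 26.9, 24.9 and 24.8 at 144 h, and 29.1, 27.8 and 27.8 in exposed libraries at 24 h and 15.8, 15.2 and 15.4 at 144 h, and CCNB2, the mitotic cyclin B2, 55.3, 53.6 and 52.9 FPKM in untreated libraries at 24 h and 42, 38.5 and 43 at 144 h, and 47.2, 47.3 and 48.4 in exposed libraries at 24 h and 25.6, 23.2 and 24.8 at 144 h. In all 3 genes the exposed 144 h libraries were the lowest. Their interactions were −0.62 ± 0.07 (SE, adjusted p = 1.69e-05), −0.58 ± 0.05 (SE, adjusted p = 7.67e-06) and −0.57 ± 0.06 (SE, adjusted p = 2.65e-05). ANLN lies at the fold threshold, and its call was lost in 5 of 12 settings without 1 library. AURKB lost its call without the second exposed 144 h library (−0.55). CCNB2 passed the threshold without the first untreated 24 h library (−0.59), the second untreated 144 h library (−0.61) or the first exposed 144 h library (−0.60).

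The promoters of CCNB2 and ANLN are shown because mitotic genes often carry the cell cycle homology region near their start. It is a short element read by complexes that control cell cycle genes. RefSeq sequences (GRCh38.p14) cover 250 bases before to 50 after the start, CCNB2 at chr15:59104896-59105195 on the plus strand and ANLN at chr7:36389612-36389911 on the plus strand, 5′ to 3′. Capitals mark TTTGAA on either strand.
CCNB2: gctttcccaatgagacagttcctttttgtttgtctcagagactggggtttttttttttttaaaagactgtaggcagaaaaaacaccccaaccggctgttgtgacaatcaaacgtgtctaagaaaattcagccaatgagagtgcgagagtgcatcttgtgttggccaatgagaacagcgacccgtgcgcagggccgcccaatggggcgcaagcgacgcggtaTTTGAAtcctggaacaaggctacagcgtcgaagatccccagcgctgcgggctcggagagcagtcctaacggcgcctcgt
ANLN: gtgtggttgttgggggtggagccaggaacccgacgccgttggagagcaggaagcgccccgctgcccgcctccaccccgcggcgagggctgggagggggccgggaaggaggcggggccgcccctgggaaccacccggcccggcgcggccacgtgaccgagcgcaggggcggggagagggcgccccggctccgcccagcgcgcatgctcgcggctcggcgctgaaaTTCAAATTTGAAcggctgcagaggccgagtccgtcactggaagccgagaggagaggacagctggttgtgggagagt
The element was found in 16 of the 22 list members with a promoter of this length (72.7%), in 903 of 9493 promoters of all genes tested (9.51%) and in 20 of 152 genes called lower (13.2%). In the S phase list it was in 1 of 23 (4.35%). ANLN holds 2 adjoining matches. A match to these letters is a description and not a measured binding site.

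DNA replication and S phase genes followed the same course. Of 26 tested, 23 had a negative interaction by the adjusted p value and none a positive one, and none passed both thresholds by limma (1 higher and 25 lower at an unadjusted p below 0.05). The median interaction was −0.34 (members −0.56 to 0.34), with median time changes of −0.71 and −1.06. MCM7, a subunit of the replicative helicase, was at 144, 145 and 151 FPKM in untreated libraries at 24 h and 97.8, 97.4 and 100.4 at 144 h, and 135, 130.2 and 135 in exposed libraries at 24 h and 60.9, 61.2 and 60.3 at 144 h. All 4 groups were separate, with exposed libraries lower at each time, and the interaction was −0.56 ± 0.04 (SE, adjusted p = 5.76e-07). It passed the fold threshold without the third untreated 24 h library (−0.58). CDC6 and CDC45, which load and activate this helicase, had interactions of −0.45 ± 0.06 (SE, adjusted p = 5.81e-05) and −0.44 ± 0.07 (SE, adjusted p = 0.00026).

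Among 22 p53 targets and CDK inhibitors, 2 were called higher and 1 lower (median 0.13). By the adjusted p value 9 were higher and 1 lower, where 14.1% and 16.3% of all genes were. Of the estimates, 19 lay above 0 and 3 below, where the median over all genes was −0.0197. CDKN1A was given above. CDKN2C, the CDK inhibitor p18, was at 11.9, 13.1 and 12.7 FPKM in untreated libraries at 24 h and 8.14, 8.71 and 7.98 at 144 h, and 8.16, 10.2 and 10.4 in exposed libraries at 24 h and 3.59, 2.99 and 3.25 at 144 h. It fell to its lowest level in exposed spheroids at 144 h, an interaction of −0.92 ± 0.12 (SE, adjusted p = 0.000123). ZMAT3, a p53 target, had an interaction of 0.55 ± 0.08 (SE, adjusted p = 0.00018) and was not called.

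Clustered histone genes moved in both directions. Their transcripts mostly lack a poly(A) tail, the libraries were made from purified mRNA, and copies share sequence, so their values are uncertain. Of 23 tested, 8 were called higher and 2 lower, and the median was 0.15, or 0.42 without the second untreated 24 h library and 0.51 without the first exposed 144 h library. H1-2, a linker histone, was at 18.6, 18.7 and 18.9 FPKM in untreated libraries at 24 h and 13.6, 12.9 and 16.9 at 144 h, and 15, 15.7 and 15.1 in exposed libraries at 24 h and 32.5, 37.5 and 37.8 at 144 h. The exposed 144 h libraries were the highest, with an interaction of 1.60 ± 0.12 (SE, adjusted p = 8.28e-07). H2BC5 was at 3.0, 2.9 and 4.05 FPKM in untreated libraries at 24 h and 2.78, 3.99 and 7.52 at 144 h, and 3.25, 2.19 and 2.99 in exposed libraries at 24 h and 15.7, 17.7 and 15.9 at 144 h (interaction 2.12 ± 0.37 SE, adjusted p = 0.00084), and H4C8 at 0.38, 0.74 and 1.94 FPKM in untreated libraries at 24 h and 0.76, 1.44 and 1.44 at 144 h, and 0, 0.74 and 0.38 in exposed libraries at 24 h and 4.94, 5.21 and 6.75 at 144 h (interaction 3.61 ± 0.90 SE, adjusted p = 0.00832). In both genes the exposed 144 h libraries stood above all others, and H4C8, with a library at 0, had an interaction of 2.11 with a pseudocount of 1 and of 4.79 with 0.01, both called. H2AC20 went down, with 5.72, 6.14 and 4.89 FPKM in untreated libraries at 24 h and 7.56, 5.81 and 4.61 at 144 h, and 6.01, 5.2 and 2.92 in exposed libraries at 24 h and 1.93, 1.66 and 0.71 at 144 h, and an interaction of −1.77 ± 0.44 (SE, adjusted p = 0.00858). H4C11 had the most negative interaction of the list, −4.17 ± 1.91 (SE, adjusted p = 0.116), and was not called. Its untreated 24 h libraries ran from 0 to 20.9 FPKM, and it was called without the first (−1.79) or the third of them (−5.64).

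All called NRF2 targets had a positive interaction. Of 30 tested, 10 were called higher where 4.2% of all genes were, and 26 had a positive interaction by the adjusted p value where 14.1% of all genes did. The median interaction was 0.49 (members −0.13 to 1.87). Without TPN the list's median time change was −0.43 and 11 members fell, whereas with TPN the median was 0.02, 5 members rose and 1 fell. Relative to untreated 24 h the library medians were 0.56, 0.57 and 0.56 in TPN at 24 h, −0.45, −0.44 and −0.39 in untreated spheroids at 144 h and 0.70, 0.82 and 0.76 in TPN at 144 h. TPN libraries were thus above untreated ones at both times, and the distance was larger at 144 h.

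AKR1C1, a reductase of steroids and aldehydes (chromosome 10, 4952949 to 4983283), was at 162, 198 and 143 FPKM in untreated libraries at 24 h and 169.9, 168 and 174 at 144 h, and 342, 341 and 342 in exposed libraries at 24 h and 725, 738 and 791 at 144 h. Untreated libraries overlapped between times and exposed ones did not, with an interaction of 1.10 ± 0.11 (SE, adjusted p = 1.47e-05). The AKR1C genes are close paralogs, and reads can be shared among them. ABCC3, an exporter of conjugates and bile salts, read 21.6, 22.4 and 22.1 FPKM in untreated libraries at 24 h and 11.8, 11.6 and 11.8 at 144 h, and 29.4, 31.3 and 31.9 in exposed libraries at 24 h and 33.1, 33.3 and 32.5 at 144 h. It fell without TPN and was kept with it, an interaction of 1.00 ± 0.05 (SE, adjusted p = 3.91e-08). GPX2, a glutathione peroxidase, and TXNRD1, thioredoxin reductase, were chosen after their values were seen, for their promoters. GPX2 was at 632, 674 and 621 FPKM in untreated libraries at 24 h and 315, 305 and 317 at 144 h, and 729, 742 and 742 in exposed libraries at 24 h and 599, 604 and 646 at 144 h, with an interaction of 0.78 ± 0.05 (SE, adjusted p = 2.89e-07). TXNRD1 read 114, 113 and 113 FPKM in untreated libraries at 24 h and 101, 97.5 and 98.7 at 144 h, and 214, 209.6 and 218 in exposed libraries at 24 h and 289.6, 302 and 292 at 144 h, with an interaction of 0.66 ± 0.04 (SE, adjusted p = 7.87e-08). Neither of its time changes was called, but under median ratio scaling its rise with TPN was (0.64). NFE2L2, the gene of NRF2 itself, was at 97.5, 97 and 97.7 FPKM in untreated libraries at 24 h and 105, 97.2 and 103 at 144 h, and 78.8, 77.2 and 79.5 in exposed libraries at 24 h and 75.3, 77.2 and 79 at 144 h. Exposed libraries were lower at both times, and the interaction of −0.09 ± 0.04 (SE, adjusted p = 0.155) did not pass.

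The promoters of TXNRD1 (chr12:104215529-104215828 on the plus strand) and GPX2 (chr14:64942696-64942995 on the minus strand) are shown as RefSeq gives them in GRCh38.p14, 5′ to 3′, since both genes were called and hold the antioxidant response element core. Capitals mark TGACNNNGC on either strand.
TXNRD1: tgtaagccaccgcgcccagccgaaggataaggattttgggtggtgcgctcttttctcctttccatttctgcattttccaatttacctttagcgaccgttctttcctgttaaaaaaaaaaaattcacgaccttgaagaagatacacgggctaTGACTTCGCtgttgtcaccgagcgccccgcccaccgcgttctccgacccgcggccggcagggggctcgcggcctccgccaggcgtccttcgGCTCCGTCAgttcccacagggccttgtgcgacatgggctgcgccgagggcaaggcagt
GPX2: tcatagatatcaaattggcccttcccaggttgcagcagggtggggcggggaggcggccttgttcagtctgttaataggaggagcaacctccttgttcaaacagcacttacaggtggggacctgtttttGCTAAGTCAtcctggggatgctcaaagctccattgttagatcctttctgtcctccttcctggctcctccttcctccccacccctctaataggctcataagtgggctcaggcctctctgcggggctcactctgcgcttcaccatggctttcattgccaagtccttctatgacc
This core was in 6 of 21 list members with a promoter in the table (28.6%), in 1471 of 9493 promoters overall (15.5%) and in 55 of 365 genes called higher (15.1%). It was also in 5 of 22 mitosis and spindle genes (22.7%) and 5 of 23 S phase genes (21.7%), lists whose interactions leaned downward. PTGR1 and AKR1C1 had no match in this window, and only the letters in these 300 bases were searched.

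Cytochromes P450 and conjugating enzymes gave 6 higher calls and 1 lower among 24 tested (median 0.22), where 4.2% and 1.66% of all genes were called. CYP1A1, an oxidase of aromatic compounds and a target of the aryl hydrocarbon receptor, was at 7.96, 7.72 and 9.24 FPKM in untreated libraries at 24 h and 7.33, 6.98 and 8.68 at 144 h, and 5.52, 6.25 and 6.16 in exposed libraries at 24 h and 13.1, 11.8 and 12.9 at 144 h. Exposed libraries were below untreated ones at 24 h and above them at 144 h, an interaction of 1.18 ± 0.12 (SE, adjusted p = 1.59e-05). GSTA1 and GSTA2, given above, are in this list too.

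The median acute phase gene was lower with TPN than without it at 24 h and higher at 144 h. Of 15 tested, 7 were called higher and none lower, where 4.2% and 1.66% of all genes were. By the adjusted p value 11 were higher and 1 lower, where 14.1% and 16.3% of all genes were. The median interaction was 0.50. The list's median TPN effect was −0.29 at 24 h and 0.20 at 144 h, and its median time change −0.34 without and 0.61 with TPN. Library medians relative to untreated 24 h were −0.26, −0.32 and −0.27 in TPN at 24 h, −0.30, −0.41 and −0.30 in untreated spheroids at 144 h and 0.11, 0.23 and 0.17 in TPN at 144 h.

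SERPINA3, the protease inhibitor alpha 1-antichymotrypsin (chromosome 14, 94612384 to 94638362), was at 518, 539.9 and 509.8 FPKM in untreated libraries at 24 h and 716, 720.3 and 788 at 144 h, and 437, 434 and 434 in exposed libraries at 24 h and 1468, 1499 and 1591 at 144 h. The 4 groups were separate, exposed libraries being lowest at 24 h and highest at 144 h. Its interaction was 1.30 ± 0.06 (SE, adjusted p = 9.78e-09). It changed only in exposed spheroids by the thresholds, although its change without TPN of 0.50 passed 0.58 under median ratio scaling. LCN2, lipocalin 2, which binds bacterial siderophores, was at 72.3, 79.3 and 62.4 FPKM in untreated libraries at 24 h and 52.8, 53.4 and 57.1 at 144 h, and 67.8, 68.1 and 68.4 in exposed libraries at 24 h and 82.2, 83.6 and 95.7 at 144 h, with an interaction of 0.74 ± 0.10 (SE, adjusted p = 0.000162). The 3 chains of fibrinogen, the clot protein, were called as well, FGA at 0.61, FGB at 0.63 and FGG at 0.72, and so was HPX, the haem carrier hemopexin, at 1.26. These 4 were picked from the called members after their values were seen. HAMP, the iron hormone hepcidin, had a negative interaction. It was at 147, 130.3 and 152 FPKM in untreated libraries at 24 h and 416, 389 and 419 at 144 h, and 28.9, 37.8 and 30.5 in exposed libraries at 24 h and 60.1, 75.2 and 73.5 at 144 h, a TPN effect of −2.15 at 24 h and −2.56 at 144 h, and an interaction of −0.41 ± 0.14 (SE, adjusted p = 0.0382). Of 12 cytokine and receptor genes, 2 were called, both higher (median 0.16). IL1R1, the receptor of interleukin 1, was at 9.05, 8.78 and 9.66 FPKM in untreated libraries at 24 h and 6.82, 6.77 and 6.37 at 144 h, and 7.6, 6.42 and 7.61 in exposed libraries at 24 h and 9.65, 11 and 10.5 at 144 h (interaction 0.98 ± 0.10 SE, adjusted p = 1.47e-05), and LIF, a cytokine of the interleukin 6 family, at 3.82, 4.11 and 3.59 FPKM in untreated libraries at 24 h and 4.98, 5.31 and 5.01 at 144 h, and 7.6, 7.49 and 7.11 in exposed libraries at 24 h and 14.3, 15.1 and 15.8 at 144 h (interaction 0.61 ± 0.09 SE, adjusted p = 0.000151). LIF fell below the fold threshold without the second untreated 24 h library (0.56) or the third exposed 144 h library (0.58). NFKBIA, the inhibitor of NF-kappa B, had an interaction of −0.35 ± 0.09 (SE, adjusted p = 0.00905) and was not called.

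Complement and coagulation genes had 2 calls in each direction among 25 tested (median 0.02). Beside C1S, F12, coagulation factor XII, was at 4.3, 4.38 and 4.73 FPKM in untreated libraries at 24 h and 5.95, 5.32 and 5.57 at 144 h, and 4.54, 4.57 and 4.45 in exposed libraries at 24 h and 3.89, 2.77 and 3.13 at 144 h, an interaction of −0.79 ± 0.14 (SE, adjusted p = 0.000786). C5, a terminal complement component, had an interaction of 0.53 ± 0.07 (SE, adjusted p = 7.38e-05) and stayed under the fold threshold.

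Constitutive plasma proteins and hepatocyte factors had more members lower than higher. By the adjusted p value 12 of 23 were lower and 2 higher, where 16.3% and 14.1% of all genes were. Only 1 passed the fold threshold too, where 1.66% of all genes were called lower, and the median interaction was −0.28. ALB, serum albumin (chromosome 4, 73397114 to 73421482), was at 4460.0, 4526 and 4191 FPKM in untreated libraries at 24 h and 6391, 5709 and 6031 at 144 h, and 3807, 3835 and 3847 in exposed libraries at 24 h and 3974, 3674 and 3941 at 144 h. The untreated 144 h libraries were the highest, and exposed libraries overlapped between times. The time change was 0.46 without and 0.01 with TPN, an interaction of −0.45 ± 0.06 (SE, adjusted p = 0.000139). AFP, alpha-fetoprotein, was at 4401, 4112 and 4388 FPKM in untreated libraries at 24 h and 4552, 4109 and 4250.4 at 144 h, and 3928, 3824 and 3949.7 in exposed libraries at 24 h and 2862, 2459 and 2699 at 144 h. Here the exposed 144 h libraries were the lowest, with an interaction of −0.55 ± 0.07 (SE, adjusted p = 0.000105). It was called without the second untreated 144 h library (−0.58) or the first exposed 144 h library (−0.60). FOXA1, a pioneer factor of liver genes, had an interaction of −0.45 ± 0.09 (SE, adjusted p = 0.00291).

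**Figure D3:**
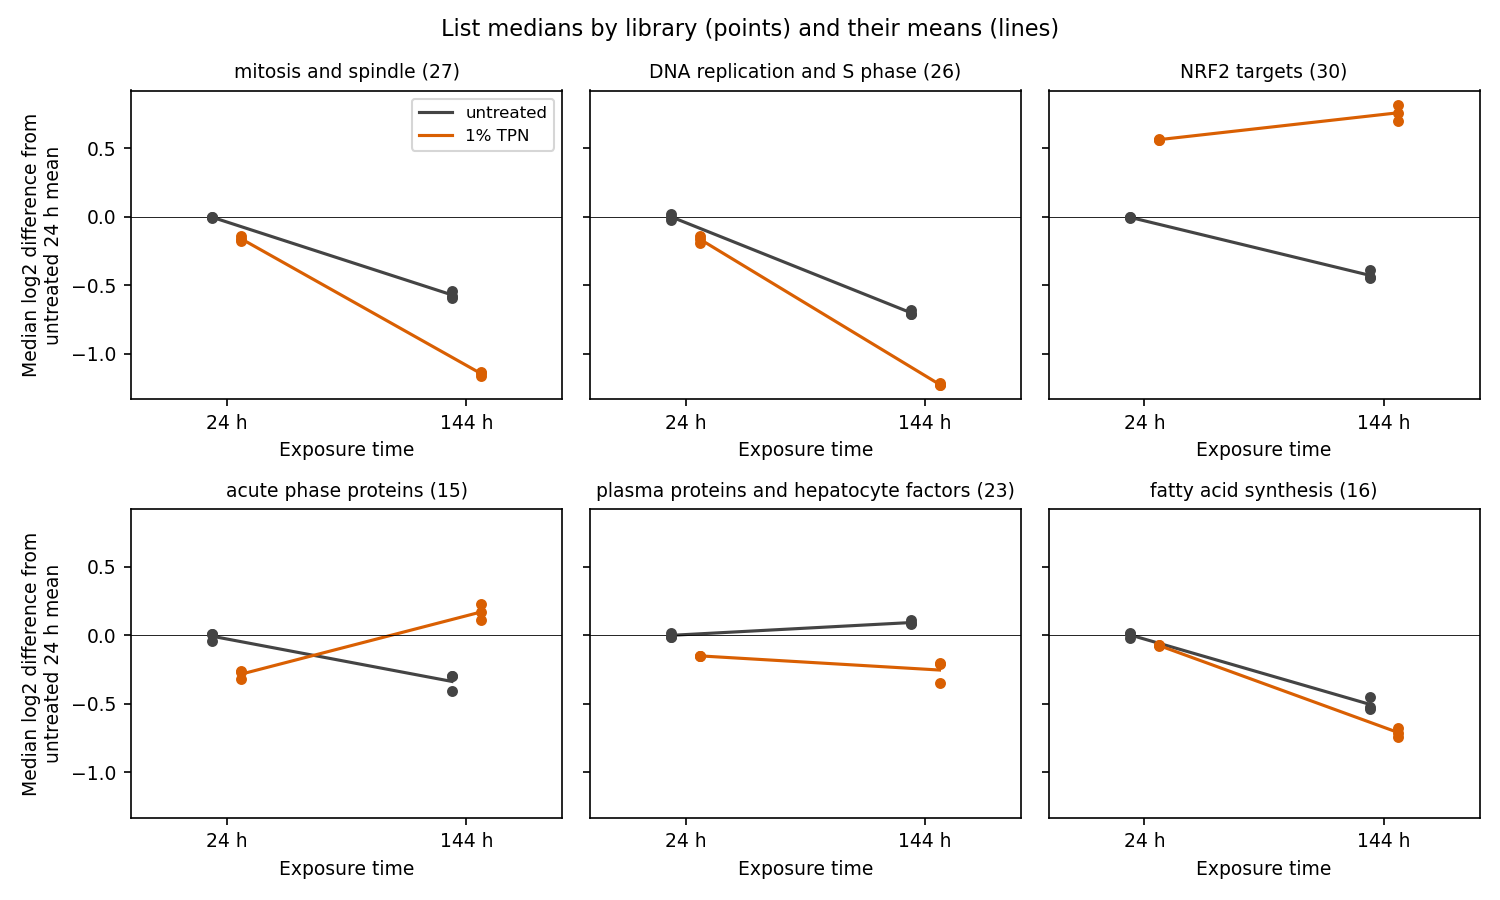
Median over the members of 6 gene lists (members tested in the titles) of the log2 difference from the untreated 24 h mean, by exposure time, with 1 point per library and lines through the means of 3 libraries, grey for untreated and orange for 1% TPN. The cell division lists fall in both and further with TPN, the NRF2 lines move apart, and the acute phase lines cross.

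Collagens and matrix genes were called in both directions, 6 lower and 2 higher of 22 (median −0.01). COL9A2, a chain of cartilage type IX collagen, was at 24.8, 25.3 and 25.4 FPKM in untreated libraries at 24 h and 23.9, 25.1 and 27.1 at 144 h, and 20.9, 22.4 and 22.1 in exposed libraries at 24 h and 13.2, 14 and 13.1 at 144 h. The exposed 144 h libraries were the lowest (interaction −0.71 ± 0.07 SE, adjusted p = 7.61e-06), and with median ratio scaling its change in exposed spheroids was no longer called. COL16A1 was higher, with an interaction of 0.56 ± 0.12 (SE, adjusted p = 0.00253), under the fold threshold, and was called without either of the first 2 untreated 24 h libraries (0.60 and 0.61), without the third exposed 24 h library (0.60) or without the first exposed 144 h library (0.62). Markers of stellate or fibroblast cells did not move as one. Of 14 listed, 10 were tested, 4 were called lower and none higher. The 4 were COL1A1, COL3A1, COL6A3 and VIM, the first 3 of which are in the collagen list too. At 144 h, COL3A1 was at 0.6, 0.35 and 0.56 FPKM in untreated and 0.15, 0.15 and 0.08 in exposed libraries. COL6A3 was at 0.65, 0.46 and 0.51 in untreated and 0.27, 0.16 and 0.18 in exposed ones. The interactions of COL3A1 and COL6A3, −1.22 and −1.09, thus rest on values near the added 0.1. VIM, the intermediate filament of mesenchymal cells, was at 14, 17.1 and 15.9 FPKM in untreated libraries at 24 h, 13.7, 13.9 and 12.2 in exposed ones at 24 h, 2.32, 1.74 and 3.25 in untreated ones at 144 h and 1.24, 0.97 and 1.03 in exposed ones at 144 h. The summed level of the list, mostly S100A4, was 305 to 352 FPKM in untreated libraries at 24 h, 314 to 324 in exposed ones at 24 h, 174 to 191 at 144 h without TPN and 167 to 192 with it. DES, a defining marker, was at most 0.09 FPKM in any library. PDGFRB was at 3.03, 3.13 and 3.13 FPKM in untreated libraries at 24 h, 2.76, 3.13 and 3.14 in exposed ones at 24 h, 3.03, 3.14 and 3.07 in untreated ones at 144 h and 2.4, 2.15 and 2.4 in exposed ones at 144 h. ACTA2, smooth muscle actin, was at 58.4, 58 and 57.1 FPKM in untreated libraries at 24 h and 45.2, 48.2 and 50.3 at 144 h, and 48, 48.3 and 45.8 in exposed libraries at 24 h and 43.6, 45.9 and 46.6 at 144 h. Exposed libraries were all lower at 24 h and overlapped with untreated ones at 144 h, and the interaction was positive at 0.21 ± 0.06 (SE, adjusted p = 0.013), under the fold threshold. COL1A2, PDGFRB and THY1 had negative interactions of −1.09, −0.36 and −0.22 (adjusted p = 0.0543, 0.0211 and 0.569) and were not called. TAGLN and S100A4 had interactions of 0.26 and 0.0002 (adjusted p = 0.394 and 0.999). In such pooled RNA, fewer cells of a type and less RNA per cell cannot be told apart, and the part of the LX-2 share in these results was not tested.

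Of 15 TGF-beta and YAP targets, 3 were called lower and 1 higher (median −0.02). TGFBI, a matrix protein induced by TGF-beta, was at 219.7, 211 and 218 FPKM in untreated libraries at 24 h and 334, 332 and 342 at 144 h, and 171, 180.1 and 172 in exposed libraries at 24 h and 166, 168 and 172 at 144 h. It rose without TPN, and exposed libraries overlapped between times, an interaction of −0.68 ± 0.04 (SE, adjusted p = 1.27e-07). TGFB1, the cytokine itself, had a called rise with time only in exposed spheroids, with 35.4, 34.8 and 32.6 FPKM in untreated libraries at 24 h and 38.6, 40.4 and 41.2 at 144 h, and 35.5, 36.5 and 34.3 in exposed libraries at 24 h and 66.1, 63 and 69.9 at 144 h, and an interaction of 0.68 ± 0.06 (SE, adjusted p = 7.16e-06). Untreated libraries were also all higher at 144 h than at 24 h, by 0.23 on the log2 scale and under the fold threshold, against 0.90 with TPN. ANKRD1, a YAP target, read 7.21, 7.1 and 7.34 FPKM in untreated libraries at 24 h and 11.8, 12.6 and 12.1 at 144 h, and 2.48, 3.44 and 2.89 in exposed libraries at 24 h and 3.44, 3.63 and 2.53 at 144 h. Exposed libraries were lower at both times, and the interaction was −0.63 ± 0.17 (SE, adjusted p = 0.0145), lost without the second exposed 24 h library (−0.51) or the third exposed 144 h library (−0.47). BMP and SMAD targets had 1 call among 10 (median 0.14). ID1, an inhibitor of differentiation induced by BMP, had TPN effects of −0.88 at 24 h and −0.56 at 144 h (interaction 0.32 ± 0.07 SE, adjusted p = 0.00231). BAMBI had an interaction of 0.22 ± 0.05 (SE, adjusted p = 0.00573).

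Fatty acid oxidation and lipid droplet genes had 5 higher calls and 1 lower among 20, where 4.2% and 1.66% of all genes were called. Of the estimates, 14 lay above 0 and 6 below (median 0.19, against −0.0197 over all genes). CIDEC, a lipid droplet protein, was at 19.8, 16.4 and 18.7 FPKM in untreated libraries at 24 h and 10.9, 10.2 and 9.92 at 144 h, and 26.6, 24.5 and 28.6 in exposed libraries at 24 h and 27.6, 26 and 27.5 at 144 h. It fell without TPN and stayed with it, an interaction of 0.84 ± 0.10 (SE, adjusted p = 3.76e-05). FABP1, the liver fatty acid-binding protein (chromosome 2, 88122982 to 88128062), was at 1298, 1311 and 1216 FPKM in untreated libraries at 24 h and 1619, 1501 and 1565 at 144 h, and 1256, 1183 and 1081 in exposed libraries at 24 h and 2215, 2423 and 2376 at 144 h. Exposed libraries at 144 h were the highest, with an interaction of 0.70 ± 0.07 (SE, adjusted p = 1.67e-05). CREB3L3, a transcription factor of fasting and triglyceride genes, was at 20.3, 19 and 17.9 FPKM in untreated libraries at 24 h and 16.4, 16 and 15.2 at 144 h, and 21.5, 23.2 and 25.1 in exposed libraries at 24 h and 33.9, 29.4 and 33.3 at 144 h, with an interaction of 0.73 ± 0.09 (SE, adjusted p = 8.96e-05).

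No fatty acid synthesis gene passed both thresholds by limma (1 higher and 12 lower at an unadjusted p below 0.05), but 11 of 16 were lower and 1 higher by the adjusted p value, where 16.3% and 14.1% of all genes were (median −0.25). FADS2, the delta-6 desaturase, was at 33.5, 33.5 and 33.7 FPKM in untreated libraries at 24 h and 24.9, 22.6 and 24.1 at 144 h, and 30.0, 30.4 and 32.1 in exposed libraries at 24 h and 17, 15.5 and 15.5 at 144 h (interaction −0.45 ± 0.06 SE, adjusted p = 0.000167). ACSS2, which makes acetyl-CoA from acetate, had an interaction of −0.46 ± 0.09 (SE, adjusted p = 0.0019), and ELOVL5, an elongase of polyunsaturated fatty acids, went against the list with an interaction of 0.45 ± 0.05 (SE, adjusted p = 2.01e-05). In cholesterol synthesis and uptake, 11 of 22 were lower and 1 higher by the adjusted p value, again against 16.3% and 14.1% of all genes, with 1 call (median −0.19). That call was TM7SF2, a sterol reductase, at 48, 49.6 and 48.1 FPKM in untreated libraries at 24 h and 30.6, 32.4 and 32.3 at 144 h, and 42.6, 42.4 and 45.5 in exposed libraries at 24 h and 19.2, 17.3 and 20.2 at 144 h (interaction −0.59 ± 0.07 SE, adjusted p = 5.06e-05). It was lost in 4 of 12 settings without 1 library, where it was −0.58 to −0.53, and with a pseudocount of 1 (−0.57). LSS, lanosterol synthase, was at 57, 63.7 and 61.1 FPKM in untreated libraries at 24 h and 39.4, 40.0 and 37.8 at 144 h, and 56.6, 55.6 and 56.6 in exposed libraries at 24 h and 25, 23.8 and 25.2 at 144 h (interaction −0.56 ± 0.06 SE, adjusted p = 1.54e-05), and was called without the second untreated 24 h library (−0.60) or the third untreated 144 h library (−0.58).

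Apolipoproteins and lipoprotein assembly gave 2 higher calls and 1 lower among 18 (median −0.09). APOA4 read 18.7, 20.3 and 18.3 FPKM in untreated libraries at 24 h and 17.5, 19.2 and 19.1 at 144 h, and 22.5, 23.8 and 23.3 in exposed libraries at 24 h and 46.1, 36.9 and 45.2 at 144 h, with an interaction of 0.91 ± 0.10 (SE, adjusted p = 2.95e-05). ANGPTL4, an inhibitor of lipoprotein lipase and a PPAR target, was at 1.72, 1.77 and 1.18 FPKM in untreated libraries at 24 h and 17.6, 17.7 and 17.2 at 144 h, and 1.59, 2.13 and 2.02 in exposed libraries at 24 h and 37.7, 37.4 and 38 at 144 h. It rose in both and more with TPN (interaction 0.81 ± 0.18 SE, adjusted p = 0.00376). None of 9 bile acid genes was called by limma (1 higher and 2 lower at an unadjusted p below 0.05, median −0.06). ABCB4, the canalicular phospholipid exporter, had an interaction of 0.44 ± 0.09 (SE, adjusted p = 0.00189), NR0B2, the repressor SHP, −0.43 ± 0.05 (SE, adjusted p = 2.66e-05), and ABCG5, a sterol exporter, −0.23 ± 0.10 (SE, adjusted p = 0.0818).

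Glucose and insulin genes had 5 higher calls and 1 lower among 17 (median 0.30). PCK1, the first committed enzyme of gluconeogenesis (chromosome 20, 57561110 to 57568121), was at 1.24, 1.12 and 1.37 FPKM in untreated libraries at 24 h and 10.6, 10.5 and 10.5 at 144 h, and 1.21, 1.17 and 0.86 in exposed libraries at 24 h and 19.8, 20.2 and 21.8 at 144 h. It rose with time in both, and at 144 h exposed libraries were all higher, with an interaction of 1.15 ± 0.15 (SE, adjusted p = 8.04e-05). IGFBP3, a carrier of insulin-like growth factors, had the largest time changes of the genes named. It was at 0.36, 0.48 and 0.28 FPKM in untreated libraries at 24 h and 14.2, 14.8 and 14.8 at 144 h, and 0.47, 0.59 and 0.46 in exposed libraries at 24 h and 40.7, 45.7 and 43.5 at 144 h, with an interaction of 1.19 ± 0.18 (SE, adjusted p = 0.00027). ARRDC4, an arrestin-domain protein responsive to glucose, was at 2.43, 2.54 and 3.02 FPKM in untreated libraries at 24 h and 3.9, 4.12 and 3.92 at 144 h, and 4.17, 4.44 and 4.56 in exposed libraries at 24 h and 12.7, 12.6 and 12.4 at 144 h (interaction 0.93 ± 0.10 SE, adjusted p = 2.81e-05). Of 28 hypoxia and glycolysis genes, 2 were called higher and 1 lower (median −0.06), although 15 rose with time without TPN and 14 with it. EGLN3, an oxygen-sensing hydroxylase, had an interaction of 1.03 ± 0.19 (SE, adjusted p = 0.00125). ANKRD37 had an interaction of −0.67 ± 0.18 (SE, adjusted p = 0.0145), lost without the third untreated 24 h library (−0.48) or the second exposed 144 h library (−0.57). ADM, the peptide adrenomedullin, had an interaction of −0.50 ± 0.13 (SE, adjusted p = 0.00889) and reached the call without the first untreated 24 h library (−0.58).

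Metallothioneins, small proteins that bind zinc and copper, had interactions of both signs. In the list with zinc transporters, 1 of 11 was called higher and 2 lower (median −0.08). MT1F was at 138, 151 and 124 FPKM in untreated libraries at 24 h and 86.5, 68.7 and 75.8 at 144 h, and 125, 144 and 119.6 in exposed libraries at 24 h and 38.4, 28.6 and 33.8 at 144 h. MT1G was at 394, 370.0 and 349 FPKM in untreated libraries at 24 h and 196, 147 and 141 at 144 h, and 395, 413 and 389.7 in exposed libraries at 24 h and 101, 92.5 and 92.1 at 144 h. MT2A, the most abundant, was at 966, 1064 and 1012 FPKM in untreated libraries at 24 h and 747, 503 and 638 at 144 h, and 998, 1059.8 and 1029 in exposed libraries at 24 h and 1021, 957 and 1072 at 144 h. All 3 overlapped between untreated and exposed libraries at 24 h, and at 144 h the exposed libraries were lower in MT1F and MT1G and higher in MT2A. Their interactions were −1.11 ± 0.15 (SE, adjusted p = 0.000139), −0.86 ± 0.13 (SE, adjusted p = 0.00032) and 0.69 ± 0.14 (SE, adjusted p = 0.00251). MT2A was not called without the second untreated 144 h library (0.54), and under median ratio scaling its fall without TPN was not called. These genes are close in sequence, and reads can be shared among them.

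Among 24 genes of growth factor signalling and MAPK feedback, 4 were called higher and 1 lower (median −0.00). EGR1, an immediate early transcription factor, was at 8.79, 11.5 and 7.81 FPKM in untreated libraries at 24 h and 8.77, 8.53 and 7.96 at 144 h, and 13.5, 9.8 and 9.98 in exposed libraries at 24 h and 24.3, 23.3 and 23.2 at 144 h. Untreated 24 h libraries overlapped with both the untreated 144 h and the exposed 24 h ones, and the exposed 144 h libraries were above all, with an interaction of 1.23 ± 0.18 (SE, adjusted p = 0.000238). DUSP5, a phosphatase of ERK, had an interaction of 0.90 ± 0.25 (SE, adjusted p = 0.0165). AREG, the EGF receptor ligand amphiregulin, had an interaction of 0.92 ± 0.28 (SE, adjusted p = 0.0256), which was not called without the first untreated 24 h library (adjusted p = 0.0585), without the second untreated 144 h library (adjusted p = 0.0571) or without a filter on low values (adjusted p = 0.0525).

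The list of keratins and junction genes, which also holds SPP1, gave 3 higher calls of 16 tested (median 0.01). The calls were SPP1, KRT23 and the claudin CLDN2, the last named after its values were seen. KRT23, an epithelial keratin, was at 52.7, 52 and 51.5 FPKM in untreated libraries at 24 h and 28.8, 29.1 and 27.5 at 144 h, and 37, 42.8 and 38.9 in exposed libraries at 24 h and 36.3, 40.4 and 40.8 at 144 h (interaction 0.86 ± 0.08 SE, adjusted p = 4.46e-06). CLDN4, a tight junction claudin, had TPN effects of 0.74 at 24 h and 1.16 at 144 h, with an interaction of 0.42 ± 0.06 (SE, adjusted p = 0.000105). Of 11 tubulins 2 were called, both higher (median 0.05). TUBA1A was at 3.54, 3.85 and 3.09 FPKM in untreated libraries at 24 h and 3.06, 4.25 and 4.21 at 144 h, and 3.36, 3.48 and 2.85 in exposed libraries at 24 h and 8.48, 8.78 and 9.76 at 144 h (interaction 1.33 ± 0.17 SE, adjusted p = 9.06e-05), and TUBB6 had an interaction of 1.06 ± 0.09 (SE, adjusted p = 4.17e-06). TUBA4A had an interaction of 0.54 ± 0.11 (SE, adjusted p = 0.00209) and was called without either the third untreated 24 h library (0.59) or the third untreated 144 h library (0.60). Urea cycle and amino acid genes gave 2 lower calls of 19 (median 0.04). PRODH2, a hydroxyproline dehydrogenase, was at 32.5, 33.7 and 32.3 FPKM in untreated libraries at 24 h and 30.2, 28.5 and 28.7 at 144 h, and 25.4, 29.4 and 31 in exposed libraries at 24 h and 15.6, 13.3 and 16.7 at 144 h (interaction −0.74 ± 0.11 SE, adjusted p = 0.000248). CPS1, the entry enzyme of the urea cycle, had an interaction of −0.39 ± 0.06 (SE, adjusted p = 0.000278) and BCKDHB, of branched-chain amino acid breakdown, −0.39 ± 0.10 (SE, adjusted p = 0.011).

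Several housekeeping and stress lists held few or no calls. None of 32 oxidative phosphorylation genes, 32 proteasome genes or 21 ER chaperone and unfolded protein response genes was called by limma. Over all genes, 4.2% were called higher and 1.66% lower, and 1.54% and 0.896% in the highest quintile of expression. In lists of this size, an absence of calls does not show that a list was unaffected. The adjusted p value alone passed in 8 oxidative phosphorylation and 6 proteasome genes, all lower, and in 4 higher and 5 lower of the ER list. Of all genes, 14.1% were higher and 16.3% lower by that value. At an unadjusted p below 0.05, 1 higher and 12 lower oxidative phosphorylation, 2 higher and 8 lower proteasome and 4 higher and 7 lower ER genes passed. The medians were −0.05, −0.03 and 0.01. HSPA5, the ER chaperone BiP, was at 425, 431 and 433 FPKM in untreated libraries at 24 h and 832, 794 and 826 at 144 h, and 404, 416 and 393 in exposed libraries at 24 h and 994, 1052 and 1023 at 144 h. It rose with time in both, and the interaction of 0.41 ± 0.04 (SE, adjusted p = 1.43e-05) stayed under the fold threshold and was 0.21 with quantile normalization. MANF and ERN1 had an interaction of 0.26 ± 0.04 (SE, adjusted p = 0.000461) and −0.27 ± 0.11 (SE, adjusted p = 0.0815). CYC1, cytochrome c1, had an interaction of −0.47 ± 0.06 (SE, adjusted p = 6.44e-05), ATP5F1B −0.23 ± 0.04 (SE, adjusted p = 0.000342) and NDUFB10 −0.22 ± 0.06 (SE, adjusted p = 0.0102). The proteasome subunits PSMC3, PSMA2 and PSMC6 had interactions of −0.38, −0.27 and −0.20. Of 25 genes of the ATF4 amino acid response, 1 was called (median −0.03). SLC3A2, the heavy chain of amino acid transporters, had an interaction of 0.48 ± 0.04 (SE, adjusted p = 4.77e-06), VLDLR 0.51 ± 0.10 (SE, adjusted p = 0.00178) and CEBPB 0.44 ± 0.06 (SE, adjusted p = 0.00011).

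**Figure D4:**
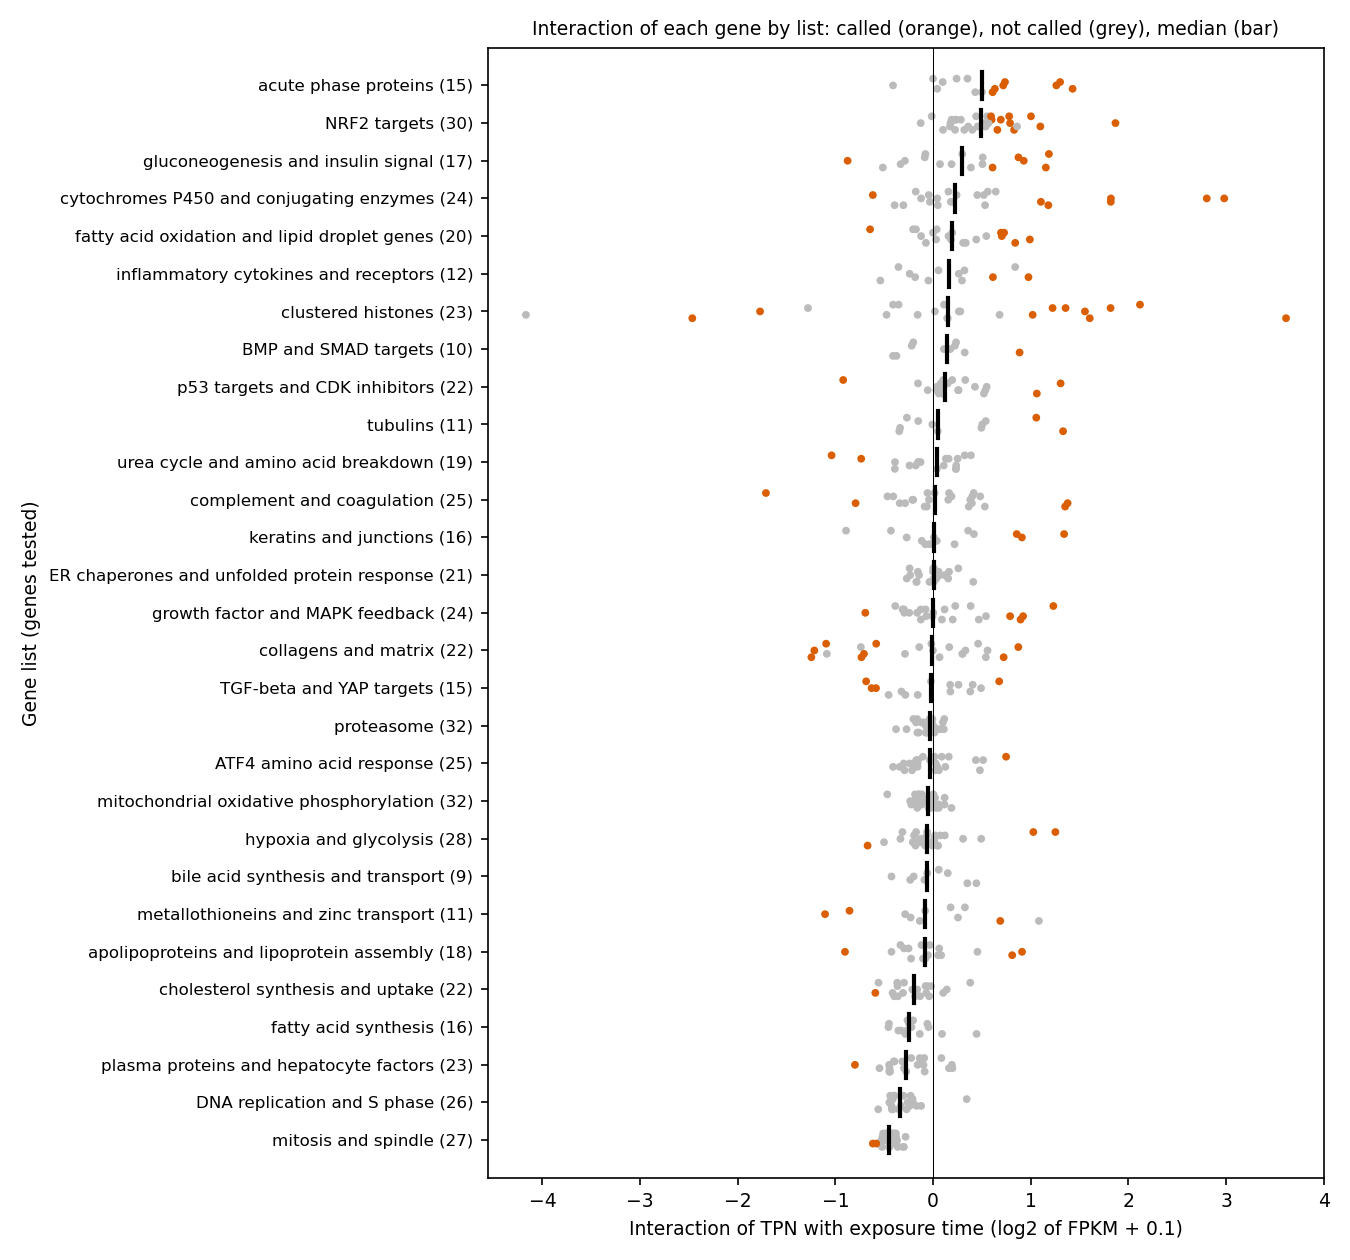
Interaction (log2 of FPKM + 0.1) of every tested member of 29 gene lists, 1 point per gene, orange where called and grey where not, with a black bar at the list's median, and the number tested is in parentheses. Mitosis and spindle members lie together left of 0 between −0.62 and −0.28, and NRF2 targets mostly right of it, while histones spread from −4.17 to 3.61.

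None of 9 nuclear receptors and factors checked was called by limma (4 higher and 2 lower at an unadjusted p below 0.05), where 5.87% of all genes were called. Among so few genes, an absence of calls does not show an absence of interaction. By the adjusted p value alone AHR, NR1H2, HNF4A, PPARD and PPARG passed, where 30.4% of all genes did. AHR, the aryl hydrocarbon receptor, was at 5.84, 5.44 and 5.9 FPKM in untreated libraries at 24 h and 6.97, 7.19 and 6.99 at 144 h, and 4.98, 5.42 and 5.39 in exposed libraries at 24 h and 8.59, 9.4 and 8.54 at 144 h, with an interaction of 0.44 ± 0.08 (SE, adjusted p = 0.00113). NR1H2 (LXR beta) had an interaction of 0.47 ± 0.09 (SE, adjusted p = 0.00177) and NR1H3 (LXR alpha) 0.01 ± 0.06 (SE, adjusted p = 0.921). HNF4A, the hepatocyte nuclear factor, was at 108, 104 and 107 FPKM in untreated libraries at 24 h and 87, 86.1 and 83.9 at 144 h, and 102, 101 and 104 in exposed libraries at 24 h and 68.9, 65.9 and 66.8 at 144 h. Levels were lower at 144 h than at 24 h and lowest with TPN, with an interaction of −0.30 ± 0.04 (SE, adjusted p = 0.000105). NR1I2 (PXR) had an interaction of 0.23 ± 0.09 (SE, adjusted p = 0.0666). The interactions of PPARA, PPARD and PPARG were 0.07, 0.29 and −0.36, with adjusted p = 0.504, 0.013 and 0.0224.

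Markers of the labelled cell types and of others were checked. No hepatocyte marker of 9 tested was called, and their summed level at 144 h was 18600 to 19700 FPKM in untreated and 15400 to 16600 in exposed libraries. ALB, APOB and SLC27A2 were present in every library, with APOB at 493, 565 and 402 FPKM in untreated and 417, 404 and 377 in exposed libraries at 144 h, while CYP7A1 was at most 0.04 FPKM. The summed endothelial markers lay between 0.25 and 1.07 FPKM, and those of leukocytes between 1.91 and 4.24. Macrophage markers summed to 47.2 to 66.2 FPKM, nearly all from CD68, with MARCO and CSF1R near 0. Cholangiocyte markers summed to 271 to 352 FPKM through KRT19, EPCAM and SOX9, with KRT7 near 0. The erythroid sum was 18.5 to 20.4 FPKM in exposed libraries at 144 h and 3.91 to 6.33 elsewhere, mostly HBA1, whose reads can be shared with HBA2. The third untreated 144 h library lists HBA1 at 0 and HBA2 at 3.40. The libraries of a group correlated over genes at 0.993 to 0.996, and their FPKM summed to between 561657 and 583722. Relative depth, read from steps of low values in 70 short genes, differed by at most 1.04 times. A gene was used only where the values above 0 of all libraries lay within 0.15 steps of multiples of 1 shared step. Larger differences in depth could thus have been missed, and equal depth is not shown.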

How the data were processed

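RNA of pooled spheroids was sequenced strand-specifically on a DNA nanoball platform. The FPKM values were deposited by the authors, who estimated them with RSEM; the submitters' processing notes name HISAT2 2.0.4, Bowtie2 2.2.5 and GRCh38.p13. Read counts and absolute depth are not given in the sources used here, and no count test was run. The table held 16705 genes, and 20 lines without a gene were dropped. Genes with a mean of at least 0.5 FPKM (11713) were fitted in limma 3.58.1 (R 4.3.3) as log2(FPKM + 0.1), with 4 group means, an intensity trend and Benjamini-Hochberg adjustment. The script was tested on simulated data.

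Named genes were, above 5 FPKM, the 6 with the largest interaction per class and the 3 per list, and 9 receptors and factors; GPX2 and TXNRD1 were added for their promoters. Some genes that the rule names are not reported here. The members, the 29 lists and the tests were chosen with earlier results of these data known. Alternatives were other pseudocounts (0.01 and 1), filters, scalings, weights, thresholds, a replicate block and leaving out each library. Coordinates are as deposited. Promoters came from RefSeq (GRCh38.p14), with 9493 of 11713 genes matched by symbol.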

Additional observations from a re-analysis of the deposited data

Results flagged for a closer look

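A test of the difference between the TPN effects at 24 h and 144 h, the limma interaction, called 687 genes. The log2 interactions of called genes that the naming rule picked, and of GPX2 and TXNRD1, are collected here. Their other values stand with the comparisons.

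With a time change of opposite sign with and without TPN, the interaction was PTGR1 1.87, DUSP13 1.82, OAS1 1.69, S100A11 1.54, HP 1.43 and C1S 1.38. With a time change called without TPN only, the interaction was DKK4 1.83, GSTA1 1.82, TSPO 1.49, SLC5A11 1.46, SPP1 1.34, IFI27 1.30, TUBB6 1.06, ABCC3 1.00, KRT23 0.86, CIDEC 0.84, DEFB1 0.79, GPX2 0.78, MT2A 0.69, ANKRD1 −0.63 and TGFBI −0.68. With a larger time change with TPN, the interaction was SERPINE2 1.83, TMED7-TICAM2 1.69, VNN1 1.67, AKAP12 1.64, NDRG4 1.58, H2AC6 1.55, IGFBP3 1.19, PCK1 1.15, EGLN3 1.03, AREG 0.92, DUSP5 0.90, ANGPTL4 0.81, TM7SF2 −0.59, MT1G −0.86, CDKN2C −0.92, MT1F −1.11 and COL1A1 −1.25. With a smaller time change with TPN, the interaction was COLGALT2 0.81, ANKRD37 −0.67, SLC12A3 −0.74, INHA −0.77, PNCK −0.83, FXYD1 −0.96 and IL17B −1.44. With a time change called with TPN only, the interaction was H4C8 3.61, H2BC5 2.12, GSTA2 1.82, CDA 1.61, H1-2 1.60, TUBA1A 1.33, SERPINA3 1.30, EGR1 1.23, CYP1A1 1.18, AKR1C1 1.10, CDKN1A 1.06, ARRDC4 0.93, APOA4 0.91, FABP1 0.70, TGFB1 0.68, LIF 0.61, ANLN −0.58, AURKB −0.62, COL9A2 −0.71, PRODH2 −0.74, MIXL1 −1.01 and H2AC20 −1.77. With neither time change called, the interaction was IL1R1 0.98, LCN2 0.74, CREB3L3 0.73, TXNRD1 0.66 and F12 −0.79.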

How the results depend on the processing

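The 687 interaction calls numbered 647 to 696 when 1 library was left out, and 679 with the replicate number as a block, 664 of them shared. Correlations of same-numbered libraries' deviations lay between −0.08 and 0.15, and 8 of 12 libraries correlated best with their own number, a hint from the data that same-numbered libraries may share something. The labels do not tie the numbers to experiments and not every pair was above 0.1, so the block was kept as an alternative, and it changed the call of no gene that the naming rule picked. With a pseudocount of 1 there were 435 calls, 88 lower, with 68 strengthened, 9 weakened, 71 blocked and 6 reversed genes. TPN effects were then called only at 144 h in 344, at both times and larger at 144 h in 15, only at 24 h in 2 and at neither time in 74. Above a mean of 5 FPKM there were 282 calls, 191 higher and 91 lower, with 48 strengthened, 8 weakened, 49 blocked, 6 reversed, 120 changed only in exposed spheroids and 51 in neither. TPN effects were then called only at 144 h in 212, at both times and larger at 144 h in 18, only at 24 h in 1 and at neither time in 51, and these counts rest on fewer genes tested. Without a fold threshold 3565 genes passed (1654 higher, 1911 lower), and with an absolute log2 above 1, 213 (178 higher, 35 lower). Effects called only at 24 h numbered 15 without a filter and 6 to 16 when 1 library was left out, 13 without the first and 16 without the third untreated 24 h library.

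Of the shared calls, 525 of 686 kept their class under median ratio scaling and 530 of 620 under quantile normalization. Median ratio scaling turned ARRDC4 and SERPINA3 to strengthened, CREB3L3, IL1R1, TXNRD1, TUBB6, CDKN2C and TM7SF2 to changed only in exposed spheroids, and DEFB1, MT2A and COL9A2 to neither. With quantile normalization HSPA5 went from 0.41 to 0.21, ANLN (−0.57) and MT2A (0.54) lost their call and AFP (−0.65) gained one; ANLN also lost it with a pseudocount of 1 (−0.55) and with library weights. NR1H3, near 0 throughout, changed sign in 3 settings without 1 library (−0.01, −0.00 and −0.02).

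List medians moved beyond the library spread as follows. With a pseudocount of 1 they were −0.30 for S phase, −0.22 for plasma proteins and 0.04 for MAPK feedback. Without a filter they were 0.47 for histones, 0.09 for complement, 0.11 for TGF-beta targets, −0.06 for BMP targets, 0.19 for gluconeogenesis, 0.05 for metallothioneins, 0.04 for MAPK feedback and 0.32 for inflammatory genes. At 5 FPKM they were 1.36 for histones, −0.16 for TGF-beta targets, −0.13 for the ATF4 response and −0.08 for MAPK feedback, and with quantile normalization −0.03 for urea cycle genes. When 1 library was left out, medians ran from −0.37 to −0.29 for S phase, −0.13 to 0.13 for urea cycle, 0.05 to 0.51 for histones, −0.31 to −0.24 for plasma proteins, −0.08 to 0.03 for MAPK feedback, −0.08 to 0.02 for bile acid genes, −0.09 to −0.03 for oxidative phosphorylation, −0.06 to −0.03 for proteasome, 0.47 to 0.52 for NRF2 targets and −0.00 to 0.11 for tubulins. The cause of these moves was not tested. The table gives no counts, so the precision of low values is unknown beyond the spread of 3 libraries.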

Other observations

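The share of genes called higher fell with expression level, from 10.1% in the lowest quintile of mean FPKM (0.5 to 3.24) to 1.54% in the highest, and that of genes called lower from 3.41% to 0.896%. By transcript length the share called higher was 6.24% in the shortest quintile and 2.93% in the longest, and by GC content 1.98% in the lowest quintile and 5.82% in the highest. The median interaction of every quintile of level, length or GC content lay between −0.046 and 0.052. Whether these properties bear on the calls was not tested.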
